A study of Rattus norvegicus with 31 samples.

Results

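The c-Jun N-terminal kinases (JNKs) and the scaffold proteins that hold them in a signalling module were followed in the CA3 region of the hippocampus of aged rats. Every probeset that the array annotation assigns to Mapk8, Mapk9, Mapk10, Mapk8ip1, Mapk8ip2, Mapk8ip3, Map2k4 or Map2k7 and to no other gene was taken, which gave 8 of the 16204 probesets in the table analysed here and 4 of the 8 genes. That table holds part of the probesets the array carries, and the others were not analysed here. Mapk8 (JNK1) had 3 probesets, Mapk9 (JNK2) and Mapk8ip1 (JIP1) had 2 each, and Mapk8ip3 (JIP3) had 1. Mapk10 (JNK3), Mapk8ip2 (JIP2) and the kinases Map2k4 and Map2k7 had no probeset of their own in this table. A further 2 probesets are annotated to Mapk8 and Mapk10 together and were kept out of the members.

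The arrays came from male Long-Evans rats aged 24 to 26 months whose spatial memory had been scored in the water maze. Rats that performed like young adults were called aged unimpaired (AU) and those that performed worse aged impaired (AI), so the phenotype was observed in each rat and was not assigned. Before the tissue was taken, rats swam to a visible platform either in a fixed place with cues around the pool (spatial, S) or in a place that changed on each trial with the cues removed (non-spatial, NS). The groups were AU-S (n = 8), AI-S (n = 8), AU-NS (n = 8) and AI-NS (n = 7, after the authors left out 1 array). Both tasks together gave AU-act (n = 16) and AI-act (n = 15), and all 31 rats were aged and trained. CA3 was microdissected and each rat had 1 array.

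JNKs are mitogen-activated protein kinases that are switched on by the kinases MKK4 and MKK7, the products of Map2k4 and Map2k7, which are in turn phosphorylated by MAP3 kinases. The JIP proteins bind several tiers of this cascade at once, and they also link it to kinesin motors and to cargo carried along the axon. In neurons the pathway is known for roles in stress responses, axon growth and transport, and cell death.

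Values are gcRMA expression levels on the log2 scale, so a difference of 1 is a doubling. The probesets of a gene bind different stretches of its transcripts, so levels are not ranked between genes, and brightness serves only to pick 1 probeset for each gene of a list. Of the 6 CA3 pyramidal cell markers listed, 4 were measured, with mean log2 levels of 9.23 (Homer3), 10.21 (Grik4), 10.37 (Nectin3) and 10.45 (Bok). Of 30 measured markers of hippocampal and other cell types, 2 differed between AU-act and AI-act, with Gad2, the smaller GABA-synthesizing enzyme, 0.48 higher (adjusted p = 0.0391) and Alb, serum albumin, 0.65 lower (log2 difference -0.65, adjusted p = 0.0139). In either direction 2.36% of all genes read through their brightest probeset were called. The other 4 interneuron markers did not pass, with differences of 0.10 (Gad1, adjusted p = 0.283), 0.08 (Pvalb, 0.639), -0.06 (Sst, 0.857) and -0.34 (Vip, 0.203). Neither did the other 2 of 3 measured endothelial and choroid plexus markers, Cldn5 (0.09, adjusted p = 0.553) and Flt1 (-0.011, adjusted p = 0.951). The RNA length measure also differed. Control probesets at the 3′ and the 5′ end of Gapdh and beta-actin grow further apart in signal as RNA becomes shorter, and their log2 gap averaged 1.45 ± 0.10 in AU-act and 1.59 ± 0.13 in AI-act (log2, SD, n = 16 and 15), a difference of -0.14 (two-sided permutation test, p = 0.0006). The hexokinase control gave 1.41 ± 0.15 in AU-act and 1.79 ± 0.27 in AI-act (permutation test, p = 2e-05, the smallest the resampling can give). In CA3 tissue, fewer cells of a type and less RNA per cell cannot be told apart.

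The first question was whether the kinases and scaffolds differed between aged rats with and without a memory deficit over both tasks. Of the 8 member probesets, 2 were higher in AU-act and none was lower at an adjusted p of 0.05, against 5.00% of all probesets called higher in the same comparison. They were 1 of the 2 probesets for Mapk9 and the only probeset for Mapk8ip3. With either RNA length measure as a covariate, 0 of the 8 members passed. All 8 member differences were positive, with a median of 0.14 on the log2 scale, while the median over all probesets was 0.0072 and 53.3% of all probesets had a positive difference. The 8 probesets cover 4 genes, and probesets of the same gene varied together, so their signs are not separate. With the Gapdh and beta-actin covariate Mapk8 1379612_at (-0.032) and Mapk8ip1 1386973_a_at (-0.014) were negative. With hexokinase Mapk8 1379612_at was (-0.13), and all other members stayed positive with both. The plot of every rat by group shows both the spread within groups, which ran from an SD of 0.05 to 0.65, and the overlap between AU and AI.

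**Figure D1:**
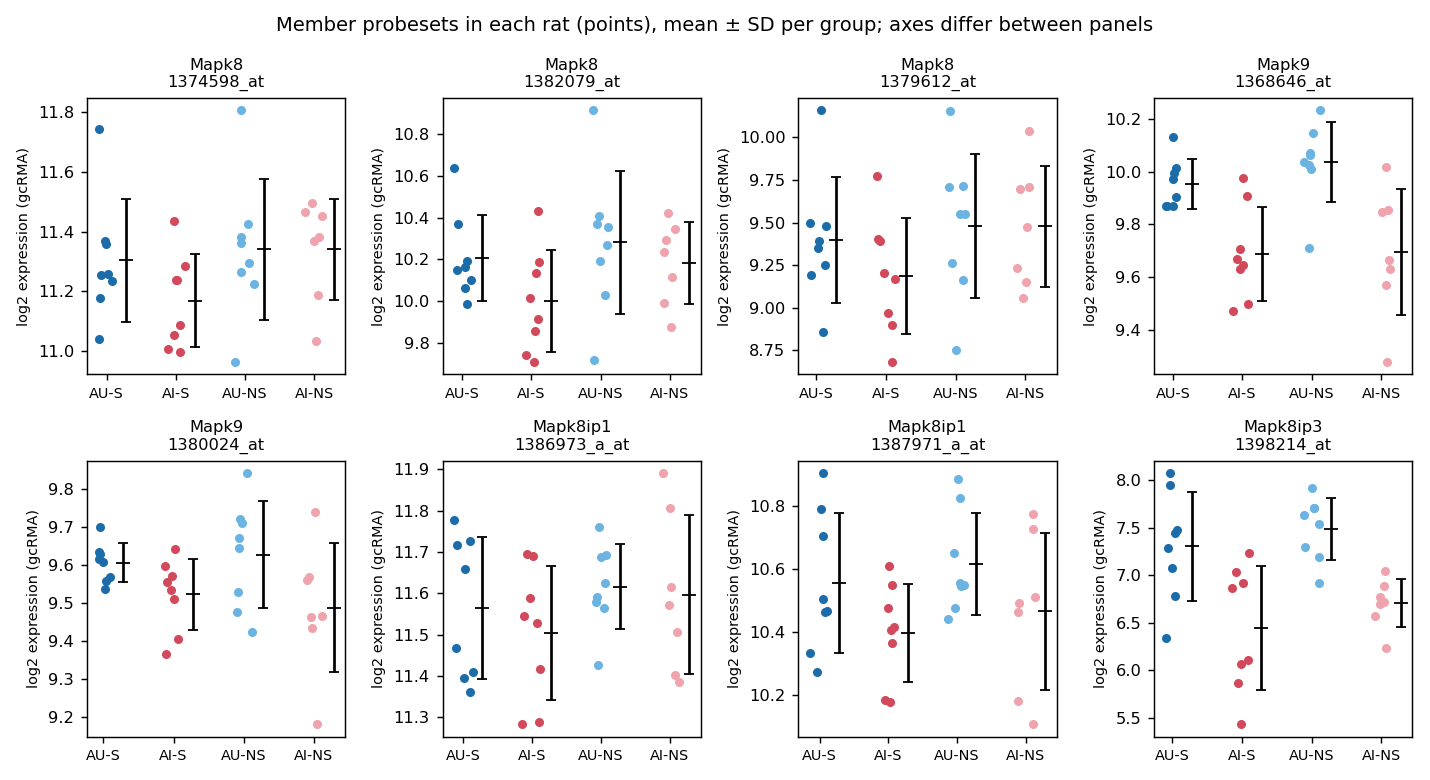
Log2 expression (vertical axis, scaled separately in each panel) of the 8 member probesets in each of the 31 rats, by group; points are rats and black bars are the mean ± SD of the group. All 7 AI-NS rats lie below the AU-NS mean for Mapk8ip3 and for Mapk9 1368646_at, while the 4 groups of the Mapk8 probesets overlap.

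Mapk8ip3 had the largest difference among the members. JIP3, its product, is a scaffold that carries JNK and its upstream kinases on kinesin and dynein along axons. Its probeset 1398214_at ranged from 6.34 to 8.07 with a median of 7.46 in AU-act, and from 5.43 to 7.23 with a median of 6.72 in AI-act. The probeset was dim, with a mean of 6.99 over the 31 arrays, at percentile 18.5 of all probeset means. Of the 16 AU-act rats, 11 lay above the highest AI-act rat, and all 15 AI-act rats lay below the AU-act mean. The means were 7.40 ± 0.46 in AU-act and 6.56 ± 0.51 in AI-act (SD, n = 16 and 15), a difference of 0.83 (SE 0.17, 1.78-fold, adjusted p = 0.00309). It was 0.57 (adjusted p = 0.235) and 0.35 (adjusted p = 0.715) with the Gapdh and beta-actin and the hexokinase covariates.

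Mapk8ip3 and Mapk8 are the members for which both an array value and a promoter sequence were at hand, and they are shown side by side because the first was called and the second was not. Each sequence runs from 250 bases before to 50 bases after the start set for it (GRCr8, minus strand of chr10:14462763-14463062 and of chr16:8728176-8728475), 5′ to 3′. For Mapk8 that start is the 5′ end of the RefSeq gene span (chr16:8645171-8728225). The whole Mapk8ip3 window lies inside its RefSeq gene span (chr10:14422936-14463387), downstream of the 5′ end. The windows are thus not placed alike, and their contents are not compared as like regions. Capitals mark matches on either strand to the GC box GGGCGG and to the half-site TGACG of the cyclic AMP response element, which is bound by CREB and ATF family factors.
Mapk8ip3: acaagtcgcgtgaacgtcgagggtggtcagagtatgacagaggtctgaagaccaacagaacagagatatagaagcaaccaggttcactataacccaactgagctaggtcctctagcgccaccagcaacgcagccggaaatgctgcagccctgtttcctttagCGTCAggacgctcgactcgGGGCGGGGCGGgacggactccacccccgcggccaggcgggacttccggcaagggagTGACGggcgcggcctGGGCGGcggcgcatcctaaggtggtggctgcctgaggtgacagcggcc
Mapk8: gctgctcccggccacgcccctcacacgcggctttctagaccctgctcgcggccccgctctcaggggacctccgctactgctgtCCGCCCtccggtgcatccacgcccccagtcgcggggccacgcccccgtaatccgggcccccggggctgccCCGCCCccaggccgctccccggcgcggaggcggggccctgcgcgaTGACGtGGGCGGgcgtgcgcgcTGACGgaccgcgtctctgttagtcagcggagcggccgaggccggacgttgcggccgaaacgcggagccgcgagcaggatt
Both sequences held 3 matches to GGGCGG, 2 of them overlapping by 1 base in Mapk8ip3, and 2 matches to TGACG. Over all 33469 promoters of this length, 33.1% held the GC box and 21.2% the half-site. Neither sequence held the letters TGANTCA (AP-1, the site of Jun dimers), CACGTG (E-box), TATAAA or CCAAT on either strand, which occurred in 7.33%, 6.42%, 14.2% and 37.5% of all promoters. The GC content was 63.0% for Mapk8ip3 and 76.3% for Mapk8, against a median of 51.7% over all promoters. These are matches of letters, and no binding was measured.

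Mapk9 encodes JNK2, a kinase expressed in most tissues including neurons. Its probeset 1368646_at ranged from 9.71 to 10.23 with a median of 10.01 in AU-act, and from 9.28 to 10.02 with a median of 9.67 in AI-act. All 16 AU-act rats lay above the AI-act mean, and 10 of the 15 AI-act rats lay below the lowest AU-act rat. The means were 9.995 ± 0.129 in AU-act and 9.691 ± 0.202 in AI-act (SD, n = 16 and 15), a difference of 0.30 (SE 0.06, 1.24-fold, adjusted p = 0.00281). With the same covariates it was 0.15 (adjusted p = 0.268) and 0.11 (adjusted p = 0.727). The AI-act values were more spread out than the AU-act values, with AI-NS replicate 8 lowest at 9.28. The other Mapk9 probeset, 1380024_at, ranged from 9.42 to 9.84 with a median of 9.62 in AU-act and from 9.18 to 9.74 with a median of 9.54 in AI-act. Its difference was 0.11 (95% confidence interval 0.02 to 0.20, adjusted p = 0.141) and did not pass the threshold, so the 2 probesets of Mapk9 gave differences of the same sign and unequal size.

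Mapk8, which encodes JNK1, did not pass the threshold on any of its 3 probesets. Probeset 1374598_at ranged from 10.96 to 11.81 with a median of 11.28 in AU-act and from 10.997 to 11.50 with a median of 11.24 in AI-act. Probeset 1382079_at ranged from 9.72 to 10.91 with a median of 10.19 in AU-act and from 9.71 to 10.43 with a median of 10.11 in AI-act. Probeset 1379612_at ranged from 8.76 to 10.16 with a median of 9.44 in AU-act and from 8.68 to 10.04 with a median of 9.23 in AI-act. The groups overlapped over most of their range on all 3. The differences were 0.07 (95% confidence interval -0.07 to 0.22), 0.16 (-0.02 to 0.34) and 0.12 (-0.15 to 0.38), with adjusted p-values of 0.613, 0.331 and 0.676.

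Mapk8ip1 encodes JIP1, a scaffold that binds JNK, MKK7 and mixed-lineage kinases and that links kinesin-1 to the amyloid precursor protein. Probeset 1386973_a_at ranged from 11.36 to 11.78 with a median of 11.61 in AU-act and from 11.28 to 11.89 with a median of 11.54 in AI-act. Probeset 1387971_a_at ranged from 10.27 to 10.90 with a median of 10.55 in AU-act and from 10.11 to 10.78 with a median of 10.46 in AI-act. The rats of both phenotypes overlapped on both. The differences were 0.04 (95% confidence interval -0.07 to 0.16, adjusted p = 0.741) and 0.16 (0.02 to 0.30, adjusted p = 0.198).

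In the table analysed here, Mapk10, the JNK that is largely restricted to the nervous system, was annotated only on the 2 probesets shared with Mapk8. The target of 1 of them, 1369102_at, is the RefSeq transcript of Mapk10. It ranged from 10.30 to 10.70 with a median of 10.48 in AU-act and from 9.92 to 10.65 with a median of 10.38 in AI-act, and 15 of the 16 AU-act rats lay above the AI-act mean. Its difference was 0.15 (SE 0.05, adjusted p = 0.0904), above the threshold of 0.05. The other shared probeset, 1377059_at, differed by 0.06 (adjusted p = 0.377).

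The next comparisons asked whether the phenotype difference was present after each task. With limma, AU-S against AI-S gave no member past an adjusted p of 0.1, against 0.389% of all probesets called higher. An unadjusted p under 0.05 was reached by 2 members, both higher in AU-S. Of all 16204 probesets, 1364 were higher and 621 lower at that level. SAM, a permutation statistic used as an alternative, called 1 member higher (Mapk9 1368646_at), and 334 of all probesets higher. Mapk8ip3 ranged from 6.34 to 8.07 with a median of 7.36 in AU-S and from 5.43 to 7.23 with a median of 6.49 in AI-S, and 5 of the 8 AU-S rats lay above every AI-S rat. Its difference was 0.86 (95% confidence interval 0.27 to 1.45, adjusted p = 0.209). Mapk9 1368646_at ranged from 9.87 to 10.13 with a median of 9.94 in AU-S and from 9.47 to 9.98 with a median of 9.66 in AI-S, and 6 of the 8 AI-S rats lay below every AU-S rat. Its difference was 0.27 (0.11 to 0.42, adjusted p = 0.145), and the adjusted p was 0.051 without AI-S replicate 1 and 0.0569 without AI-S replicate 7. The other 6 differences were between 0.06 (Mapk8ip1 1386973_a_at) and 0.21 (Mapk8 1379612_at), all positive, with adjusted p-values between 0.452 and 0.82.

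AU-NS against AI-NS in the limma fit likewise gave no member past an adjusted p of 0.1, in a comparison with 0% of all probesets called higher. An unadjusted p under 0.05 was reached by 2 members, both higher in AU-NS, while 1386 of all 16204 probesets were higher and 472 lower at that level. SAM called both members, and 371 of all probesets higher. Mapk8ip3 ranged from 6.91 to 7.92 with a median of 7.59 in AU-NS and from 6.24 to 7.04 with a median of 6.72 in AI-NS. The groups overlapped in a single AU-NS rat, the other 7 of 8 lying above every AI-NS rat. The difference was 0.78 (95% confidence interval 0.48 to 1.08, unadjusted p = 4.91e-05, adjusted p = 0.139), which ranked 4 of 16204 by the test statistic on the higher side. The adjusted p was 0.0677 without AI-NS replicate 3 and 0.089 without AU-NS replicate 8. Mapk9 1368646_at ranged from 9.71 to 10.23 with a median of 10.05 in AU-NS and from 9.28 to 10.02 with a median of 9.67 in AI-NS, with a difference of 0.34 (0.13 to 0.55, adjusted p = 0.21). Here 6 of the 8 AU-NS rats lay above every AI-NS rat. The other 6 differences lay between -0.00019 (Mapk8 1374598_at) and 0.15 (Mapk8ip1 1387971_a_at). The plot of differences with their intervals sets the 3 comparisons side by side, which share rats and so do not count as separate evidence.

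**Figure D2:**
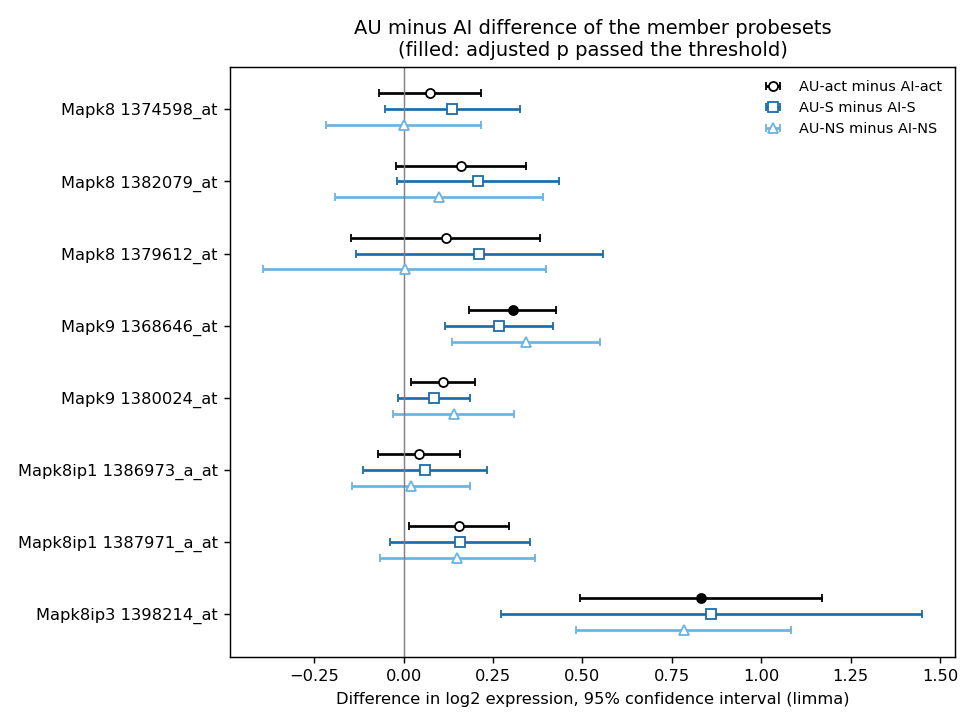
AU minus AI difference in log2 expression (horizontal axis) with its 95% confidence interval for each member probeset, in AU-act minus AI-act (circles), AU-S minus AI-S (squares) and AU-NS minus AI-NS (triangles); filled symbols passed the adjusted p threshold. Only the AU-act minus AI-act values of Mapk9 1368646_at (0.30) and Mapk8ip3 (0.83) are filled, and Mapk8ip3 lies between 0.78 and 0.86 in all 3.

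Whether the phenotype difference itself depended on the task was tested as an interaction. No member passed (0% of all probesets passed in either direction, and all 8 members had an adjusted p of 1). For Mapk8ip3 the difference in S minus that in NS was 0.08 (95% confidence interval -0.60 to 0.76), and for Mapk9 1368646_at it was -0.08 (-0.32 to 0.17). No member had an unadjusted p under 0.05.

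Spatial training was set against non-spatial training to ask whether the task moved these genes. No member passed in AI-S against AI-NS, in AU-S against AU-NS or in S against NS, and in each of these 0% of all probesets passed in either direction and no member had an unadjusted p under 0.05. SAM, run for the first and second of these, called none. The 3 Mapk8 probesets had the lowest unadjusted p-values among the members in AI-S against AI-NS. Probeset 1374598_at ranged from 10.997 to 11.44 with a median of 11.16 in AI-S and from 11.03 to 11.50 with a median of 11.38 in AI-NS, and the groups overlapped. The AI-S minus AI-NS differences were -0.17 (95% confidence interval -0.35 to 0.0039), -0.18 (-0.42 to 0.05) and -0.29 (-0.65 to 0.06) for 1374598_at, 1382079_at and 1379612_at, each with an adjusted p of 0.862. In AU-S against AU-NS the same probesets gave -0.04, -0.07 and -0.09. Mapk8ip3 gave -0.26 in AI-S against AI-NS (-0.77 to 0.24) and -0.19 in AU-S against AU-NS (-0.64 to 0.27), and Mapk9 1368646_at gave -0.0078 (-0.23 to 0.21) and -0.08 (-0.22 to 0.05).

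The differences of the called members were also fitted with the RNA length measure of each array as a covariate, since that measure differed between the phenotypes. Neither passed with the Gapdh and beta-actin or the hexokinase measure, as given above, and over all probesets 1 and 0 passed. With marker scores of dentate granule and CA1 pyramidal cells as covariates, the differences were 0.30 (adjusted p = 0.00296) for Mapk9 and 0.78 (adjusted p = 0.00582) for Mapk8ip3. The dentate score averaged 9.58 in AU-act (9.19 to 9.95) and 9.72 in AI-act (9.09 to 10.44). The CA1 score averaged 9.01 in AU-act (7.97 to 9.64) and 9.05 in AI-act (8.48 to 10.07). Within AU-S against AI-S the hexokinase covariate turned the Mapk8ip3 difference to -0.17 (adjusted p = 0.913), and within AU-NS against AI-NS it left 0.57 (adjusted p = 0.992).

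**Figure D3:**
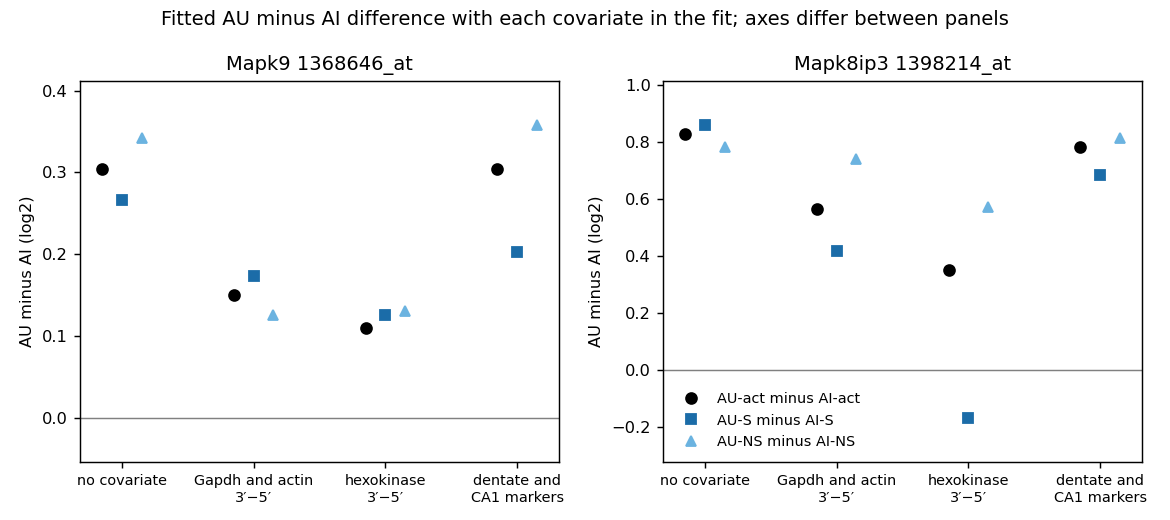
Fitted AU minus AI difference in log2 expression (vertical axis, scaled separately in each panel) of Mapk9 1368646_at and Mapk8ip3 1398214_at with no covariate, with each of the RNA length measures and with the dissection marker scores (horizontal axis), for both tasks pooled (circles), S (squares) and NS (triangles). The pooled Mapk9 value is 0.30 with no covariate, 0.15 and 0.11 with the RNA length measures and 0.30 with the marker scores.

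Among themselves the members varied mostly with their own gene. After group means were removed, the 5 pairs of probesets for the same gene had Pearson correlations between 0.757 (Mapk9) and 0.900 (Mapk8 1382079_at and 1379612_at) over the 31 arrays. The 23 pairs of probesets from different genes ranged from -0.394 (Mapk8 1374598_at and Mapk8ip1 1387971_a_at) to 0.584 (Mapk9 1368646_at and Mapk8ip1 1387971_a_at). Mapk9 1368646_at and Mapk8ip3, the members called, correlated at 0.333. These values describe arrays that share their RNA preparation and normalization.

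The probesets whose pattern over the 31 arrays was most like that of Mapk8ip3, again after group means were removed, belonged to Spag9 (r = 0.818), Prkca (r = 0.781) and Man1a2 (r = 0.740). Spag9 encodes JIP4, the paralog of JIP3, on probeset 1397618_at. Those most like Mapk9 1368646_at belonged to Opa1 (r = 0.893), Rab6a (r = 0.874) and Nrip3 (r = 0.859). Opa1 encodes a GTPase of the inner mitochondrial membrane and Rab6a a GTPase of Golgi transport.

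The other genes of the pathway were taken from lists, chosen with earlier results of these data known, and read through the brightest probeset of each gene. Of 56 measured genes, 2 were higher in AU-act and none was lower, against 2.05% of all 9037 genes read in the same way. With any probeset of a gene counted, 7 of the 56 were higher, against 6.89% of all genes. With the Gapdh and beta-actin covariate 1 of all 16204 probesets passed in AU-act against AI-act, and with hexokinase 0. At most 1 of the AU-act calls named here and in the next paragraph could thus remain with an RNA length covariate. Among upstream kinases, 1 of 15 measured MAP3K and MAP4K genes was higher, Taok1 (difference 0.34, SE 0.10, adjusted p = 0.0353), whose product phosphorylates MAP2 kinases. Among JNK substrates, 1 of 13 was higher, Atf2 (0.42, SE 0.12, adjusted p = 0.0356), a transcription factor of the CREB and ATF family. Jun, the substrate that gave the kinases their name, differed by 0.06 on its brightest probeset (adjusted p = 0.667). It differed by -0.04 on 1369788_s_at (adjusted p = 0.739) and by 0.22 on 1374404_at (adjusted p = 0.0893), and none of these passed. None of 3 JNK phosphatases passed and none of 8 ERK and p38 pathway kinases passed.

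None of 17 other scaffolds, motors and cargo partners passed on the brightest probeset, and 5 of them were higher on another. These 5 were among the 9 with 2 or more probesets, while 21.4% of all 2394 genes with 2 or more probesets had at least 1 called higher. By probeset, 6 of 33 were called, against 5.00% of all probesets. The list was chosen with earlier results of these data known, and the paper reported App as higher in AU-act from the same arrays. These shares therefore do not test whether such genes are called more often than others. Klc1, a kinesin light chain that binds the JIP proteins, was 0.46 higher on 1388125_a_at (adjusted p = 0.00158) and differed by 0.10 on its brightest probeset (adjusted p = 0.152). Kif5c, a kinesin-1 motor, was 0.46 higher on 1396154_at (adjusted p = 0.00265) and differed by -0.11 on its brightest (adjusted p = 0.62). App, the amyloid precursor protein, was 0.41 higher on 1380533_at and 0.15 higher on 1371572_at (adjusted p = 0.00158 and 0.00587), and Rac1, a small GTPase upstream of JNK, was 0.19 higher on 1372513_at (adjusted p = 0.00874). Spag9 was 0.47 higher on 1397618_at (adjusted p = 0.0267) and differed by 0.03 on its brightest probeset (adjusted p = 0.615). In AU-S against AI-S the Klc1 probeset 1388125_a_at was also higher (0.54, adjusted p = 0.0732), and no other list gene passed on any probeset in either within-task comparison. The median over the brightest probesets was between -0.05 (phosphatases) and 0.05 (substrates) in the 5 lists, against 0.0072 over all probesets.

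**Figure D4:**
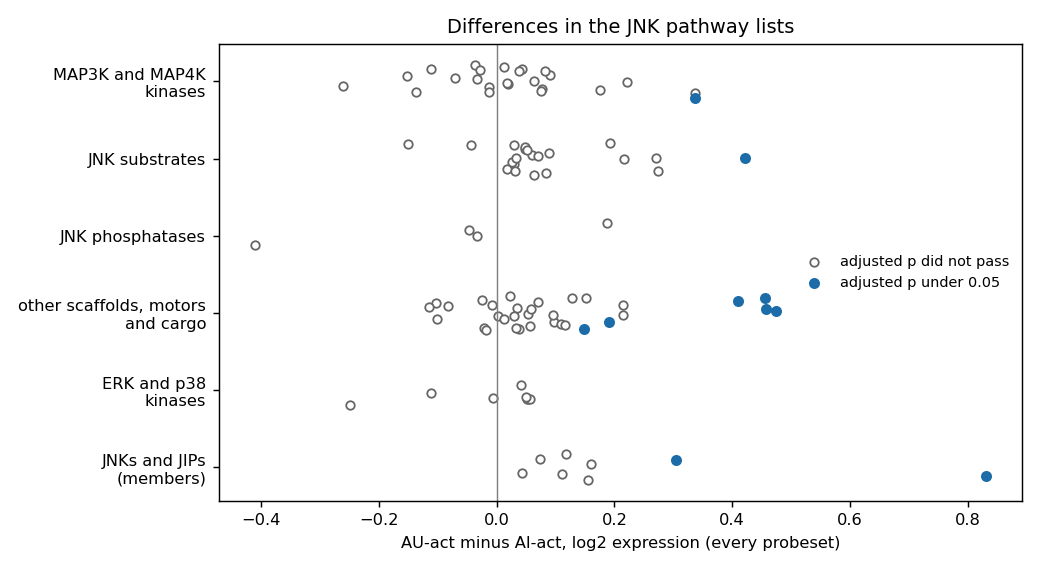
AU-act minus AI-act difference in log2 expression (horizontal axis) of every probeset in the pathway lists and of the members (rows); filled points passed an adjusted p of 0.05 and vertical scatter within a row has no meaning. The filled members are Mapk9 1368646_at at 0.30 and Mapk8ip3 at 0.83, and every filled point lies to the right of 0.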

How the data were processed

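RNA from CA3 of 31 rats was measured on Affymetrix rat arrays. The authors ran gcRMA (version not given in the sources used here) to make the deposited log2 values, and the file holds 16204 probesets with values from 1.31 to 16.12. Array medians lay between 8.97 and 9.14, and each array's mean correlation with the others between 0.981 and 0.989. The methods' intensity limit of 4 on the log2 mean removed no probeset, since the lowest mean in the file was 5.0002 and the file holds part of the array's probesets. Arrays carry no counts, so the number of rats limits the precision. The array annotation gave 12242 probesets 1 gene, 293 several and 3669 none.

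Groups came from the labels. Tests were two-sided and used limma 3.58.1 (lmFit, then eBayes) under R 4.3.3, and p-values were adjusted by Benjamini-Hochberg over the whole table of 16204 probesets, at an adjusted p of 0.05 for AU-act against AI-act and for S against NS and of 0.1 elsewhere. S against NS had phenotype as a term. Differences are AU minus AI or S minus NS. RNA length measures were compared by permutation of the mean difference (100000 resamples, or exact within a task). The named genes are the members, the list genes that passed or that the text takes up by role, and the 3 probesets most correlated with each called member. The members and lists were chosen with earlier results of these data known, and Jun and the other probesets of list genes were named after their values were seen. On simulated data with 200 changed probesets out of 16204, 55% were recovered at 1.2-fold and 92.5% at 1.5-fold for AU-act against AI-act. The shares were 27.5% and 85% for AU-S against AI-S, and 24% and 86% for AU-NS against AI-NS. The simulated noise was independent between probesets and held no RNA length difference. These shares therefore check the fit and do not give the recovery to be had in the real arrays.

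Alternatives were array weights, quantile normalization or centring on the median, other intensity limits, a prior with trend and robust settings, covariates for RNA length and dissection, a replicate block, a task term, a 4-group fit, SAM (coded by hand, 100 permutations), all probesets of a list gene, and leaving out single arrays. Figures used Python 3.11 and matplotlib.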

Additional observations from a re-analysis of the deposited data

Results flagged for a closer look

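In 32 groups of values (8 member probesets in 4 groups), the highest or lowest rat stood apart from the others of its group by Dixon's criterion in 2, and chance alone gives about 1 in 20. For Mapk9 1368646_at, AU-NS replicate 5 was lowest at 9.71, the next being 10.01. For Mapk8 1374598_at, AU-S replicate 1 was highest at 11.74, the next being 11.37.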

How the results depend on the processing

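Mapk9 1368646_at and Mapk8ip3 were the members called in AU-act against AI-act in every fit without an RNA length covariate. Their differences stayed between 0.28 and 0.33 (Mapk9) and between 0.75 and 0.90 (Mapk8ip3) when each array was left out, with adjusted p-values up to 0.00596 and 0.00629. The count of all probesets was 893, and 621 to 1181 with 1 array left out, 591 with the replicate block and 1611 with SAM, whose added constant came out near 0. With the Gapdh and beta-actin covariate 0 members and 1 probeset passed, and with hexokinase 0 and 0.

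In AU-S against AI-S (67 of all probesets), array weights gave 551 probesets and 2 members (Mapk9 and Mapk8ip3), SAM 398 and 1 (Mapk9), median centring 9, quantile normalization 12, the replicate block 3, the Gapdh and beta-actin covariate 1, and the hexokinase and dissection covariates 0 each. Leaving out 1 array gave 5 to 448 probesets and 0 to 1 members, with Mapk9 passing without AI-S replicate 1 (adjusted p = 0.051) or replicate 7 (adjusted p = 0.0569). In AU-NS against AI-NS (0), array weights gave 40 probesets and 1 member (Mapk8ip3), the fit of all 4 groups 163 and 1 (Mapk9), and SAM 421 and 2. Leaving out 1 array gave 0 to 208 probesets and 0 to 1 members, with Mapk8ip3 passing without AI-NS replicate 3 (adjusted p = 0.0677) or AU-NS replicate 8 (adjusted p = 0.089). No member passed in the other comparisons under any setting. With every probeset of a gene, 7 list genes passed, against 2. The 3′ minus 5′ difference was between -0.16 and -0.12 with 1 array left out, an alternative added after the data were seen.

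The labels do not say that replicate numbers pair the rats, and the main fits did not pair them. The median correlation of same-numbered arrays was between -0.16 and -0.04 in the 4 comparisons of 2 groups, and at most 2 pairs exceeded 0.1. The highest was 0.311, in AU-NS against AI-NS, where 2 of 7 arrays were most like the array of their own number. Such correlations cannot exclude that some numbers share a run or a match. SAM was not run for S against NS or the interaction, and the fit of all 4 groups is the interaction's own fit.

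Differences that missed the threshold changed sign in some settings, and the cause was not tested. With the Gapdh and beta-actin covariate these were, in AU-act against AI-act, Mapk8 1379612_at (-0.032) and Mapk8ip1 1386973_a_at (-0.014). In AU-S against AI-S it was Mapk8 1379612_at (-0.0039), in AU-S against AU-NS the same probeset (0.017), and in AU-NS against AI-NS Mapk8 1374598_at (0.091), Mapk8 1379612_at (-0.066), Mapk8ip1 1386973_a_at (-0.12), Mapk8ip1 1387971_a_at (-0.071) and Mapk9 1380024_at (-0.026). With hexokinase, Mapk8 1379612_at was -0.13 in AU-act against AI-act, -0.075 in AU-S against AI-S and -0.20 in AU-NS against AI-NS. Mapk8ip3 was -0.17 in AU-S against AI-S. In AU-NS against AI-NS, Mapk8ip1 1386973_a_at was -0.076, Mapk8ip1 1387971_a_at -0.021 and Mapk9 1380024_at -0.017. Mapk9 1368646_at was 0.017 in AI-S against AI-NS, and Mapk8ip1 1387971_a_at -0.0045 in the interaction. With the dissection covariates, Mapk8 1374598_at was 0.058 in AU-NS against AI-NS, Mapk9 1380024_at -0.0064 in AI-S against AI-NS and -0.0063 in S against NS, and in the interaction Mapk8ip1 1386973_a_at was -0.016, Mapk8ip1 1387971_a_at -0.013 and Mapk8ip3 -0.11. With array weights the 2 Mapk8ip1 probesets gave -0.0081 and -0.018 in the interaction. With the replicate block, in AU-NS against AI-NS, Mapk8 1379612_at was -0.031 and Mapk8ip1 1386973_a_at -0.0011, Mapk9 1368646_at was 0.019 in AI-S against AI-NS, and Mapk8ip1 1387971_a_at -0.0049 in the interaction. Median centring gave Mapk8 1379612_at -0.0090 in AU-NS against AI-NS and Mapk9 1368646_at 0.0026 in AI-S against AI-NS. Quantile normalization gave Mapk8 1379612_at -0.011 and Mapk8ip1 1386973_a_at -0.0055 in AU-NS against AI-NS.

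Leaving out 1 array also moved values across 0. In AU-NS against AI-NS the range was -0.067 to 0.054 for Mapk8 1374598_at, -0.016 to 0.068 for Mapk8ip1 1386973_a_at and -0.093 to 0.11 for Mapk8 1379612_at. In AI-S against AI-NS the range was -0.077 to 0.046 for Mapk9 1368646_at and -0.016 to 0.077 for Mapk9 1380024_at. In AU-S against AU-NS the range was -0.100 to 0.030 for Mapk8 1374598_at, -0.15 to 0.017 for Mapk8 1382079_at, -0.19 to 0.011 for Mapk8 1379612_at and -0.050 to 0.0093 for Mapk9 1380024_at. In S against NS the range was -0.019 to 0.024 for Mapk9 1380024_at. In the interaction of phenotype and task the range was -0.046 to 0.066 for Mapk8ip1 1387971_a_at, -0.0088 to 0.075 for Mapk8ip1 1386973_a_at and -0.066 to 0.22 for Mapk8ip3 1398214_at.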
